A study of Homo sapiens with 9 samples.

Results

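Matrix metalloproteinases (MMPs) and their tissue inhibitors (TIMPs) were followed in cells of the human monocytic leukaemia line THP-1 that had been given ectosomes of the hepatoma line Huh7. The members were 10 genes taken by symbol from the 30000 rows of the count table, namely the metalloproteinases MMP1, MMP2, MMP7, MMP9, MMP10, MMP12, MMP14 and MMP19 and the inhibitors TIMP1 and TIMP2. Of these, 9 held enough reads for the test and MMP7 did not. The 9 libraries formed 3 groups of 3. PKM2_KD_Ecto cells received ectosomes and carry the shRNA label PKM2_KD, Scramble_Ecto cells received ectosomes and carry the shRNA label Scramble, and Ctrl cells carry the shRNA label Ctrl and no agent. The shRNAs are read here as belonging to the Huh7 cells that shed the ectosomes, which the labels do not state. Neither the dose of the ectosomes nor the length of the incubation is stated in the labels, and Ctrl cells had no ectosomes of any kind, so the vesicles and the shRNA in them are separated only by the comparison of the ectosome groups. Reads per gene cannot check a knockdown of PKM2, which is an isoform of PKM.

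MMPs are zinc-dependent endopeptidases that are made as inactive zymogens and cut collagens, other matrix proteins, cytokines and cell surface receptors once their propeptide is removed. TIMPs bind the active site of MMPs in a tight complex, and TIMP2 also holds the zymogen of MMP2 at the cell surface, where MMP14 cleaves it. In monocytes and macrophages, metalloproteinases serve migration, tissue remodelling and the release of surface proteins. Ectosomes are vesicles shed by outward budding of the cell surface membrane.

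Totals ran from 17744587 to 23864381 counts per library. Levels are TMM-scaled CPM (reads of a gene relative to all reads of its library), levels per length are RPKM over the exons of each gene, and ± gives the SD over n = 3 libraries. Fold changes and adjusted p-values come from edgeR's quasi-likelihood test with Benjamini-Hochberg adjustment over 18437 rows, and a gene is called higher or lower where the adjusted p is under 0.05. The labels do not say that replicates were separate cultures, so the p-values measure only how far these libraries differ, and that spread may be technical. Bulk RNA also cannot tell fewer cells of a type from less RNA per cell. The Ctrl library numbered 3 stood apart: the chi-square per degree of freedom over genes was 44.2 and 41.9 against the other two Ctrl libraries, which gave 4.87 between themselves, and 2.47 to 6.91 within the ectosome groups. Calls of members that turn on this library are given with and without it. For other genes, and for folds over Ctrl, this was done for only some. The 12 monocytic markers were all present, with summed levels of 2166 to 2244 CPM in PKM2_KD_Ecto, 1430 to 1453 CPM in Scramble_Ecto and 1028 to 1094 CPM in Ctrl. The sums do not show every marker: 8 were called higher and 0 lower in PKM2_KD_Ecto than in Scramble_Ecto (31.4% and 30.3% of all rows), but 4 higher and 6 lower in Scramble_Ecto than in Ctrl (34.6% and 33.2% of all rows). LYZ, lysozyme, for one, averaged 39.9 CPM in PKM2_KD_Ecto, 17.6 CPM in Scramble_Ecto and 203 CPM in Ctrl. Without the Ctrl library numbered 3, 9 monocytic markers were higher and 0 lower in PKM2_KD_Ecto than in Scramble_Ecto (36.1% and 35.4% of all rows). Of 20 hepatocyte markers, 12 were in the table, with sums of 46.3 to 52.7 CPM in PKM2_KD_Ecto, 9.75 to 10.8 CPM in Scramble_Ecto and 17.4 to 20.9 CPM in Ctrl. Most of the PKM2_KD_Ecto sum was SERPINA1 at 37.4 CPM, which monocytes also make, while ALB was at 0.448 CPM in PKM2_KD_Ecto, 0.113 CPM in Scramble_Ecto and 0.111 CPM in Ctrl, and TTR and HNF4A had 0 reads in PKM2_KD_Ecto and Ctrl. The part of either marker list in the results below was not tested.

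The promoters of metalloproteinase genes are known for AP-1 elements, bound by FOS and JUN proteins, close to the start of transcription. The RefSeq promoter table (GRCh38.p14) held 4 of the members, MMP7, MMP10, MMP14 and TIMP1. For all 4, 150 bases are shown, from 130 before to 20 after the start. Capitals mark an AP-1 element (TGANTCA) or the AP-1-like letters TGAGTAA, a form that was added to the search after these sequences were seen.
MMP7 (chr11:102530728-102530877, minus strand): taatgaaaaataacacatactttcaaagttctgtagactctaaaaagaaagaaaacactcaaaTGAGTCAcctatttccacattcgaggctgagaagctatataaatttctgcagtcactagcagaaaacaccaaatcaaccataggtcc
MMP10 (chr11:102780609-102780758, minus strand): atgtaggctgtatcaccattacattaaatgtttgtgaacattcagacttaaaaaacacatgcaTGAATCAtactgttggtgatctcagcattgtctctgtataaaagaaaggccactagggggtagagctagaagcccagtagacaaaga
MMP14 (chr14:22836455-22836604, plus strand): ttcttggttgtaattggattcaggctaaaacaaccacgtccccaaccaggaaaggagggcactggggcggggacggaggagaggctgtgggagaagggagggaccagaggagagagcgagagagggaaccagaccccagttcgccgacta
TIMP1 (chrX:47582306-47582455, plus strand): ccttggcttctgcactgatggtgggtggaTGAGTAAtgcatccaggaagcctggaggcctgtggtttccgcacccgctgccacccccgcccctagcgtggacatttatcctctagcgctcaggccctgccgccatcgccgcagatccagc
MMP7 and MMP10, members of the same cluster on chromosome 11, carried an AP-1 element at the same distance, position -67 from the start, and a TATAAA box at -30 in MMP7 and at -31 in MMP10. TIMP1 had TGAGTAA at -101. MMP14 held neither AP-1 form and had a match to the NF-kB element at -35. Searched on both strands in windows of 300 bases, 250 before to 50 after the start, TGANTCA was found in 7.71% of 35116 promoters, TGAGTAA in 2.57%, the NF-kB element in 25.6% and TATAAA in 11.5%. These matches describe letters in the window and not binding.

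MMP14, MMP9 and MMP2, which form the axis of membrane-bound activator and gelatinases, were all higher in both kinds of ectosome-treated cells than in Ctrl. MMP14 encodes a membrane-anchored collagenase that also activates the MMP2 zymogen, and lies at 22836557 to 22849027 on the plus strand of chromosome 14 (GRCh38). It had 1746, 1894 and 1937 CPM in PKM2_KD_Ecto, 1372, 1421 and 1435 CPM in Scramble_Ecto and 367, 338 and 143 CPM in Ctrl. The 3 groups did not overlap, and the lowest value was that of the Ctrl library numbered 3. The rise over Ctrl was 6.58-fold in PKM2_KD_Ecto (log2 fold change 2.72 ± 0.28 SE, adjusted p = 1.72e-05) and came to 4.99-fold in Scramble_Ecto (2.32 ± 0.27 SE, adjusted p = 2.34e-05). MMP9, gelatinase B, a secreted enzyme of denatured and basement membrane collagens, spans 46008908 to 46016561 on the plus strand of chromosome 20. Its levels were 499.9, 542 and 625 CPM in PKM2_KD_Ecto, 361, 402 and 403 CPM in Scramble_Ecto and 6.71, 5.17 and 0.497 CPM in Ctrl. Ctrl was far below both ectosome groups, and within Ctrl the mean of the libraries numbered 1 and 2 was 11.95 times the value of the library numbered 3. The fold over Ctrl was 133 in PKM2_KD_Ecto (log2 fold change 7.05 ± 0.52 SE, adjusted p = 1.73e-06) and 92.95 in Scramble_Ecto (log2 fold change 6.54 ± 0.51 SE, adjusted p = 1.03e-06), and without that library it was 94.2 in PKM2_KD_Ecto and 65.96 in Scramble_Ecto. MMP2, gelatinase A, lies at 55389700 to 55506691 on the plus strand of chromosome 16. It stood at 53.6, 60.7 and 59.1 CPM in PKM2_KD_Ecto, 39.1, 40.7 and 41.6 CPM in Scramble_Ecto and 9.86, 6.63 and 3.15 CPM in Ctrl, again without overlap between groups. MMP2 rose 8.80-fold over Ctrl in PKM2_KD_Ecto (log2 fold change 3.14 ± 0.27 SE, adjusted p = 5.42e-06), and in Scramble_Ecto the rise was 6.16-fold (log2 fold change 2.62 ± 0.27 SE, adjusted p = 8.26e-06).

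**Figure D1:**
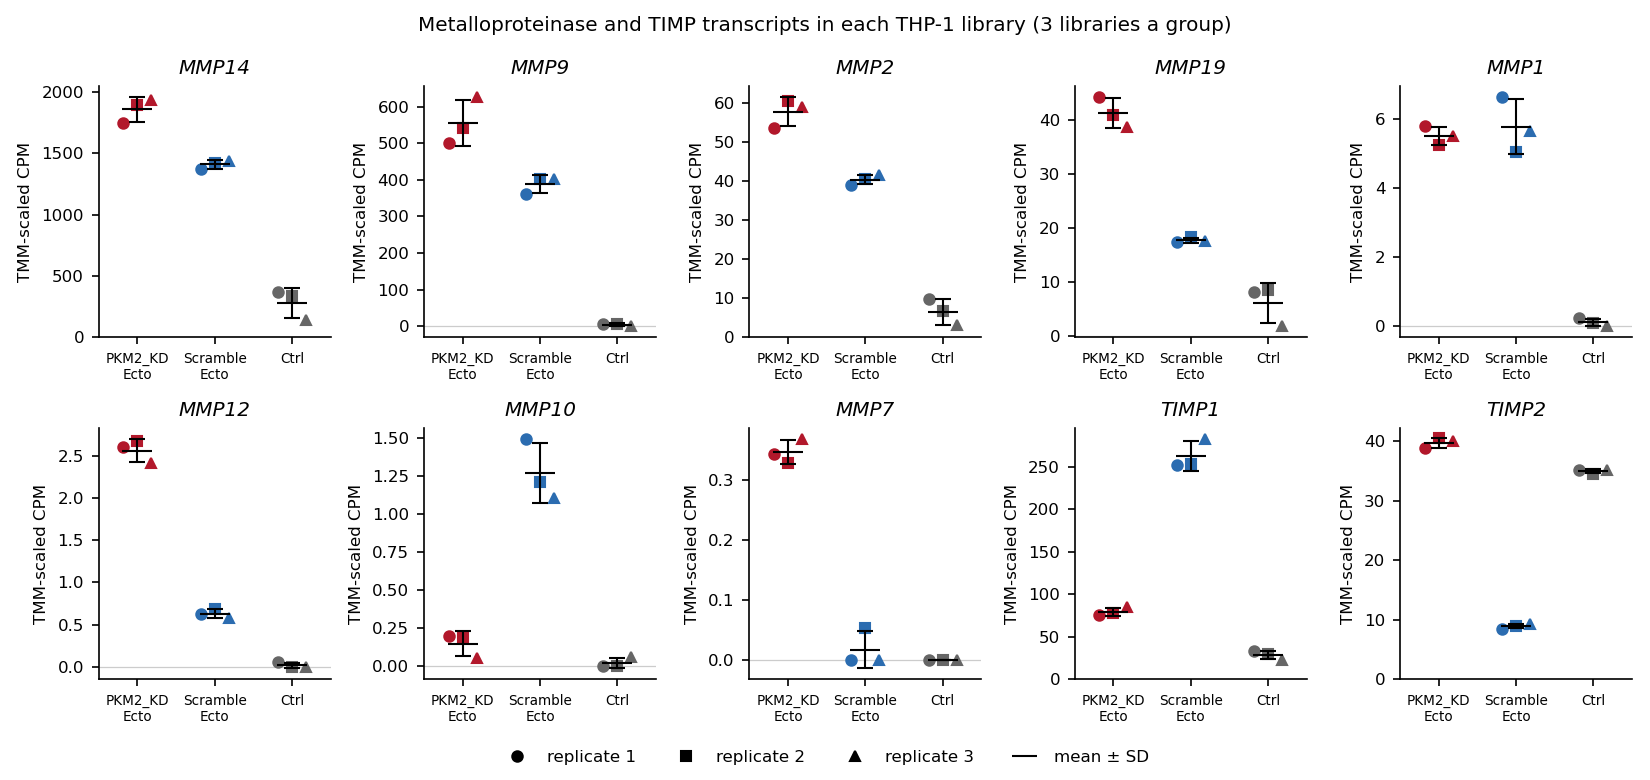
Level of each gene in TMM-scaled CPM (linear y axes) in the 3 libraries of PKM2_KD_Ecto, Scramble_Ecto and Ctrl, 1 panel a gene, with marks for the replicate numbers and bars for the group mean ± SD. TIMP1 peaked in Scramble_Ecto at 252 to 283 CPM, while TIMP2 was lowest there at 8.53 to 9.35 CPM.

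Between the ectosome groups, every PKM2_KD_Ecto library lay above every Scramble_Ecto library for these 3 genes, by amounts whose call turned on the control libraries in the fit. MMP14 differed 1.32-fold (log2 fold change 0.40 ± 0.26 SE, adjusted p = 0.204), MMP9 1.43-fold (0.52 ± 0.39 SE, adjusted p = 0.266) and MMP2 1.43-fold (0.51 ± 0.24 SE, adjusted p = 0.0838) in the fit of all 9 libraries, and none of these was called. With the 6 ectosome libraries alone, whose spread no longer includes Ctrl, edgeR called all 3 higher in PKM2_KD_Ecto, with log2 fold changes of 0.42 ± 0.05 SE for MMP14 (adjusted p = 1.00e-06), 0.53 ± 0.07 SE for MMP9 (adjusted p = 1.36e-06) and 0.53 ± 0.06 SE for MMP2 (adjusted p = 4.29e-07). Without the Ctrl library numbered 3 alone they were called as well, at adjusted p = 2.65e-06 for MMP14, 4.59e-06 for MMP9 and 1.93e-05 for MMP2. The estimated differences moved little between these fits, and the SE was several times smaller without that library. MMP2 was also called without the Ctrl library numbered 1 (adjusted p = 0.0205).

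**Figure D2:**
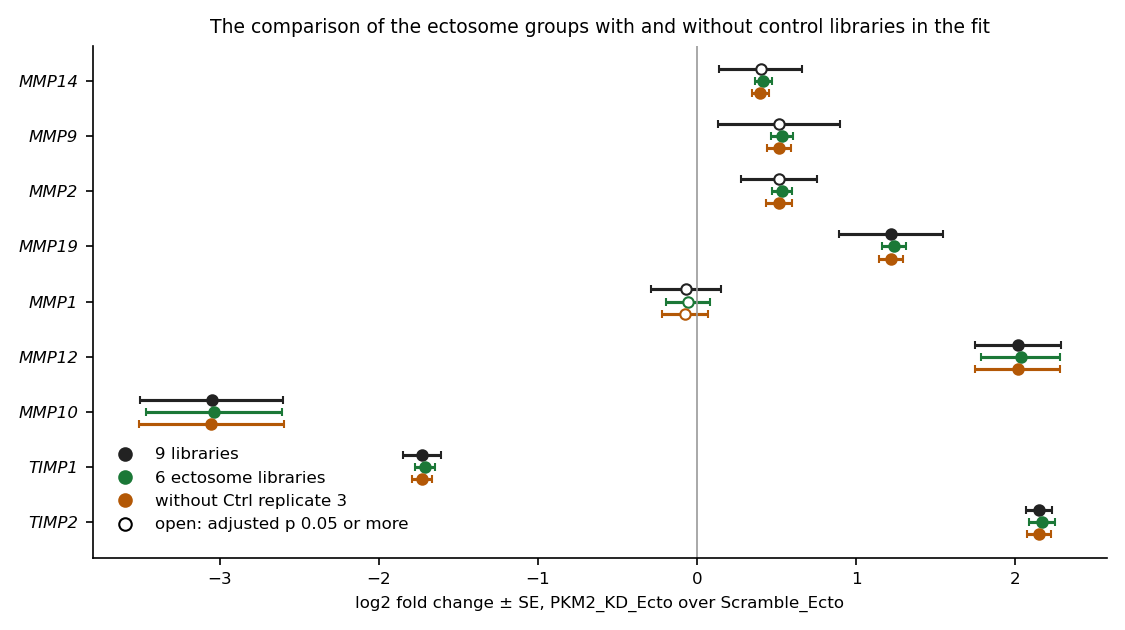
Log2 fold change of PKM2_KD_Ecto over Scramble_Ecto (x axis, bars are SE) for each gene tested, from the fit of all 9 libraries, the fit of the 6 ectosome libraries and the fit without the Ctrl library numbered 3; open points have an adjusted p of 0.05 or more. The points of MMP2, MMP9 and MMP14 sit between 0.40 and 0.53 in each fit and are open only with all 9 libraries.

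MMP19, a secreted metalloproteinase that cleaves basement membrane proteins, was called in all 3 comparisons. The gene lies at 55835433 to 55842966 on the minus strand of chromosome 12. It had 44.1, 40.9 and 38.7 CPM in PKM2_KD_Ecto, 17.5, 18.3 and 17.5 CPM in Scramble_Ecto and 8.15, 8.44 and 1.88 CPM in Ctrl. Every PKM2_KD_Ecto library lay above every Scramble_Ecto library, and these above every Ctrl library. MMP19 was 2.32-fold higher in PKM2_KD_Ecto than in Scramble_Ecto (log2 fold change 1.22 ± 0.33 SE, adjusted p = 0.00785), 2.85-fold higher in Scramble_Ecto than in Ctrl (1.51 ± 0.36 SE, adjusted p = 0.00310) and 6.62-fold higher in PKM2_KD_Ecto than in Ctrl (2.73 ± 0.36 SE, adjusted p = 9.63e-05). Its exons share 814 bases with TMEM198B on the other strand. That gene had 4.54 to 25.8 CPM over the 9 libraries, scaled by library totals without TMM. The upper value lies above the MMP19 levels of Scramble_Ecto and Ctrl. The labels do not state the strand setting of the counting, and an exchange of reads was not tested. MMP9 shares 430 exon bases with SLC12A5-AS1, also on the other strand and at most 3.60 CPM in any library on the same scale of library totals.

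The remaining metalloproteinases belong to a cluster of 9 MMP genes that spans 435.2 kb of chromosome 11, and they had few or no reads in Ctrl. MMP1, interstitial collagenase, which cuts the triple helix of fibrillar collagens, lies at 102789920 to 102798160 on the minus strand. It stood at 5.79, 5.25 and 5.51 CPM in PKM2_KD_Ecto, 6.63, 5.05 and 5.66 CPM in Scramble_Ecto and 0.213, 0.0861 and 0 CPM in Ctrl. The ectosome groups overlapped and both lay above Ctrl, where the gene had 4, 2 and 0 reads. MMP1 was 52.1-fold higher in PKM2_KD_Ecto (log2 fold change 5.70 ± 0.39 SE, adjusted p = 1.03e-06) than in Ctrl. In Scramble_Ecto it was 54.7-fold higher than in Ctrl (5.77 ± 0.39 SE, adjusted p = 3.24e-07), and without the Ctrl library numbered 1 the folds were 101 in PKM2_KD_Ecto and 107 in Scramble_Ecto. Between the ectosome groups the log2 fold change was -0.07 ± 0.22 SE (adjusted p = 0.800), which was not called, and its sign turned to 0.10 with libraries scaled by their totals.

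MMP12, macrophage elastase, at 102862736 to 102875034 on the minus strand, was, of the members in the cluster that were tested, the only one called higher in PKM2_KD_Ecto than in Scramble_Ecto. It was seen in 53, 57 and 46 reads in PKM2_KD_Ecto, 14, 13 and 12 reads in Scramble_Ecto and 1, 0 and 0 reads in Ctrl, and the groups did not overlap. In CPM this was 2.60, 2.67 and 2.41 in PKM2_KD_Ecto, 0.632, 0.684 and 0.575 in Scramble_Ecto, and 0.0533, 0 and 0 in Ctrl. The fold between ectosome groups was 4.04 (log2 fold change 2.02 ± 0.27 SE, adjusted p = 8.82e-05). Over the single Ctrl read, the ratio of counts scaled to depth was 154 in PKM2_KD_Ecto (exact 95% interval 27.3 to 6133, adjusted p = 1.40e-06 by edgeR) and 37.8 in Scramble_Ecto (6.40 to 1531, adjusted p = 4.25e-05 by edgeR), and these intervals cover counting error only. That read came from the Ctrl library numbered 1, without which the fitted folds were 421 in PKM2_KD_Ecto and 104 in Scramble_Ecto and rest on a group with 0 reads.

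MMP10, stromelysin-2, which activates procollagenases, was called lower in PKM2_KD_Ecto than in Scramble_Ecto. It lies at 102770503 to 102780628 on the minus strand, and 9.29 kb separate it from MMP1. It had 4, 4 and 1 reads in PKM2_KD_Ecto, 33, 23 and 23 reads in Scramble_Ecto and 0, 0 and 1 reads in Ctrl. In CPM this was 0.196, 0.188 and 0.0524 in PKM2_KD_Ecto, 1.49, 1.21 and 1.10 in Scramble_Ecto, and 0, 0 and 0.0552 in Ctrl. Scramble_Ecto was above the other two groups in every library, and PKM2_KD_Ecto and Ctrl overlapped. MMP10 was 8.29-fold lower in PKM2_KD_Ecto than in Scramble_Ecto (log2 fold change -3.05 ± 0.45 SE, adjusted p = 0.000163). Against Ctrl the ratio of scaled counts was 8.90 in PKM2_KD_Ecto (exact 95% interval 1.23 to 390, adjusted p = 0.0329 by edgeR) and 76.6 in Scramble_Ecto (13.4 to 3063, adjusted p = 1.56e-05 by edgeR). The call of PKM2_KD_Ecto over Ctrl ended without the PKM2_KD_Ecto libraries numbered 1 (adjusted p = 0.0947) or 2 (0.0922) and without the Ctrl libraries numbered 1 (0.0888) or 2 (0.104). Without the Ctrl library numbered 3, which held the single read, the fitted fold was 25.3 for PKM2_KD_Ecto and 210.4 for Scramble_Ecto. MMP10 and MMP3 transcripts share a run of 96 identical bases, against 14 to 26 for the longest run of any other member within the family, so reads of MMP10 are uncertain to that extent. MMP3 has no row in the count table.

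MMP7, matrilysin, a small metalloproteinase without the haemopexin domain of most relatives, lies at 102520508 to 102530753 on the minus strand. It had 7, 7 and 7 reads in PKM2_KD_Ecto, 0, 1 and 0 reads in Scramble_Ecto and 0 reads in each Ctrl library. The level was 0.344, 0.328 and 0.367 CPM in the PKM2_KD_Ecto libraries. These reads were too few for the filter, and the ratio of scaled counts of PKM2_KD_Ecto over Scramble_Ecto was 21.4 (exact 95% interval 3.45 to 886, counting error only). Over Ctrl, the ratio of PKM2_KD_Ecto was 6.92 with 3 counts over the group set in place of 0. That figure leaves out the counting error of the PKM2_KD_Ecto reads and is not a lower limit. With no filter on low counts, edgeR gave a log2 fold change of 4.0 ± 0.96 SE between the ectosome groups (adjusted p = 0.00501). Between the ectosome groups, MMP7 had its higher counts in PKM2_KD_Ecto and MMP10 in Scramble_Ecto. The part of the promoter elements shown above in these counts was not tested.

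Of the members tested, the inhibitors differed most between the ectosome groups relative to their spread, in opposite directions. TIMP1, a secreted inhibitor that also binds the MMP9 zymogen, lies at 47582313 to 47586789 on the plus strand of chromosome X, inside SYN1 on the other strand and with no exon base in common. Its levels were 75.2, 77.7 and 85.04 CPM in PKM2_KD_Ecto, 252, 253 and 283 CPM in Scramble_Ecto and 32.8, 29.7 and 23.2 CPM in Ctrl. Scramble_Ecto was highest and Ctrl lowest, with no overlap between any groups. TIMP1 was 3.31-fold lower in PKM2_KD_Ecto than in Scramble_Ecto (log2 fold change -1.73 ± 0.12 SE, adjusted p = 7.36e-07), 9.19-fold higher in Scramble_Ecto than in Ctrl (3.20 ± 0.13 SE, adjusted p = 8.65e-09) and 2.77-fold higher in PKM2_KD_Ecto than in Ctrl (1.47 ± 0.12 SE, adjusted p = 3.48e-06). TIMP2, the partner of MMP14 and of the MMP2 zymogen, lies at 78852977 to 78925387 on the minus strand of chromosome 17. It had 38.8, 40.5 and 39.95 CPM in PKM2_KD_Ecto, 8.53, 9.004 and 9.35 CPM in Scramble_Ecto and 35.1, 34.5 and 35.2 CPM in Ctrl. The Scramble_Ecto libraries were far below the other groups, and the Ctrl library numbered 3 was level with the other Ctrl libraries here. TIMP2 was 4.43-fold higher in PKM2_KD_Ecto than in Scramble_Ecto (log2 fold change 2.15 ± 0.08 SE, adjusted p = 3.15e-08) and fell 3.90-fold in Scramble_Ecto relative to Ctrl (-1.96 ± 0.08 SE, adjusted p = 1.20e-08). Every PKM2_KD_Ecto library lay above every Ctrl library, with a fitted fold of 1.14 (0.19 ± 0.08 SE, adjusted p = 0.0594), which was not called with all libraries and was called without the Ctrl library numbered 3 (adjusted p = 0.0393). TIMP2 shares 198 exon bases with CEP295NL on the same strand, which had at most 1.49 CPM in any library, scaled by library totals without TMM.

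Counted over the 9 members tested, PKM2_KD_Ecto against Scramble_Ecto gave 3 higher (MMP12, MMP19, TIMP2), 2 lower (MMP10, TIMP1) and 4 not called, where 61.6% of all rows were called, 31.4% higher and 30.3% lower. Without the Ctrl library numbered 3, or with the 6 ectosome libraries alone, 6 were higher and 2 lower. The share of all rows called was 71.5% (36.1% higher, 35.4% lower) without that library and 74.3% (37.6% higher, 36.7% lower) with the 6 libraries. Scramble_Ecto against Ctrl gave 8 higher and 1 lower, TIMP2, with 67.8% of rows called, 34.6% higher and 33.2% lower. PKM2_KD_Ecto against Ctrl gave 8 higher and TIMP2 not called, with 53.7% of rows called, 27.0% higher and 26.7% lower. Calls were thus common among all rows, and MMP1, MMP10 and MMP12 passed the filter only through groups where they were high, so these counts describe the members and show nothing particular to them. The libraries of the groups compared did not overlap for 8 members in PKM2_KD_Ecto against Scramble_Ecto (74.5% of all rows), for 9 in Scramble_Ecto against Ctrl (71.3%) and for 8 in PKM2_KD_Ecto against Ctrl (60.5%). The median log2 fold change of the members tested was, in that order of comparisons, 0.51, 3.20 and 2.75, and that of all rows 0.03, -0.01 and -0.01. Both comparisons with Ctrl used the same Ctrl libraries, so their calls are not independent of each other.

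**Figure D3:**
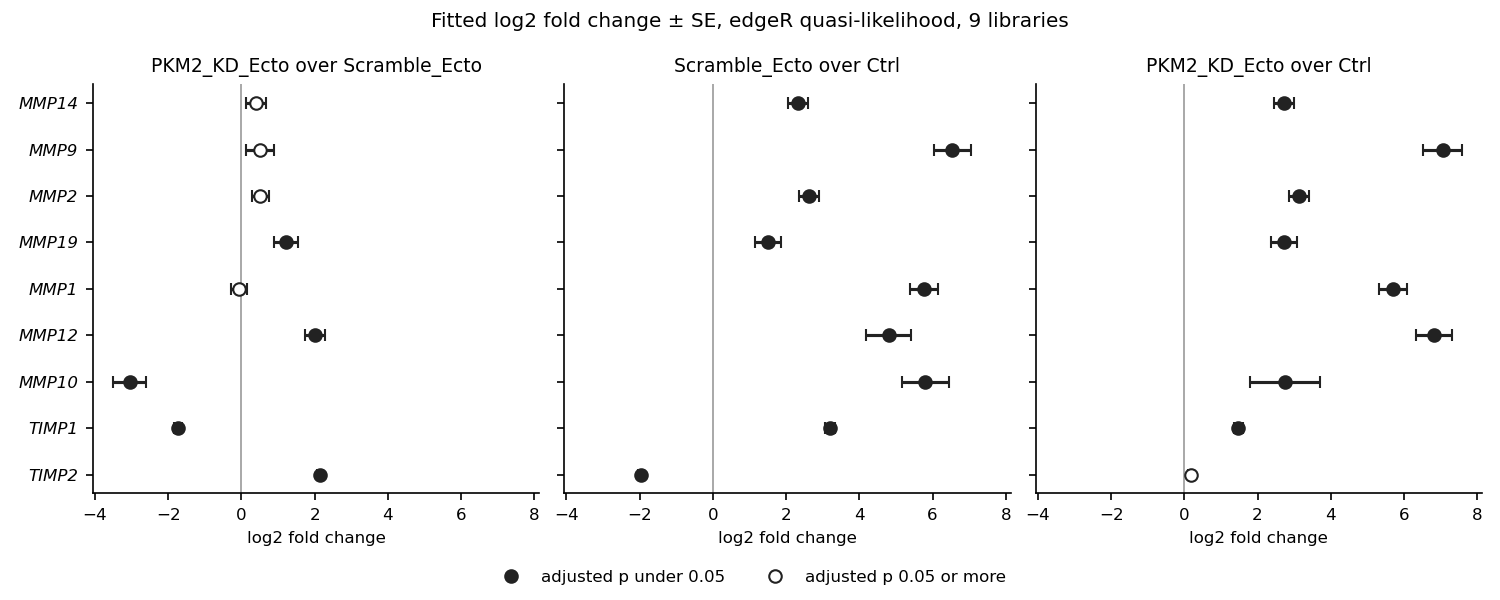
Fitted log2 fold change with SE for each gene tested, in 1 panel a comparison: PKM2_KD_Ecto over Scramble_Ecto, Scramble_Ecto over Ctrl and PKM2_KD_Ecto over Ctrl. TIMP2 lies at -1.96 in Scramble_Ecto over Ctrl and at 0.19 in PKM2_KD_Ecto over Ctrl, while the metalloproteinases lie to the right of 0 in both.

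Set in order per length among the members, MMP14 led in every group, at 416 ± 22.3 RPKM in PKM2_KD_Ecto, 316 ± 7.41 RPKM in Scramble_Ecto and 63.3 ± 27.3 RPKM in Ctrl. MMP9 was next in PKM2_KD_Ecto at 238 ± 27.3 RPKM, ahead of TIMP1 at 51.5 ± 3.31 RPKM. In Scramble_Ecto, TIMP1 at 171 ± 11.2 RPKM and MMP9 at 166 ± 10.2 RPKM overlapped, so their order was not resolved. In Ctrl the inhibitors TIMP1 at 18.6 ± 3.17 RPKM and TIMP2 at 6.20 ± 0.06 RPKM followed MMP14, ahead of MMP9 (1.77 RPKM), MMP2 (1.33 RPKM) and MMP19 (1.32 RPKM), which overlapped with each other. MMP2 and MMP19 came after the leading genes in both ectosome groups, at 11.7 and 8.83 RPKM in PKM2_KD_Ecto and 8.20 and 3.80 RPKM in Scramble_Ecto. At the low end, MMP12 at 1.37 RPKM stood above MMP10 at 0.0827 RPKM in PKM2_KD_Ecto, and in Scramble_Ecto it stood below, at 0.336 RPKM against 0.721 RPKM for MMP10. The neighbours in PKM2_KD_Ecto did not overlap at any rank, and in Ctrl the cluster genes at the end could not be ordered.

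The RPKM sum of the 8 metalloproteinases was 679 ± 48.0 in PKM2_KD_Ecto, 498 ± 17.3 in Scramble_Ecto and 67.7 ± 30.1 in Ctrl. MMP14 made up 61.4% of that sum in PKM2_KD_Ecto, 63.4% in Scramble_Ecto and 93.96% in Ctrl, and MMP9 made up 34.9% in PKM2_KD_Ecto, 33.4% in Scramble_Ecto and 2.20% in Ctrl. Over all 19 MMP genes of the table, MMP14 made up 59.3% of the RPKM sum in PKM2_KD_Ecto, 62.2% in Scramble_Ecto and 74.2% in Ctrl. On that wider sum MMP17, which is no member, held 2.13% in PKM2_KD_Ecto, 0.885% in Scramble_Ecto and 12.4% in Ctrl, where it exceeded MMP9. Divided by the sum of TIMP1 and TIMP2, the metalloproteinase sum was 11.3, 11.8 and 11.7 in PKM2_KD_Ecto, 2.89, 3.05 and 2.75 in Scramble_Ecto and 3.23, 3.19 and 1.56 in Ctrl. PKM2_KD_Ecto stood apart on this ratio, and Scramble_Ecto overlapped with Ctrl. That overlap depended on leaving out TIMP3, which is no member and made up 73.3% of the RPKM sum of all TIMPs in Ctrl. Over all 19 MMP and 3 TIMP genes of the table, sums added after the data were seen, the ratio was 10.3, 10.7 and 10.9 in PKM2_KD_Ecto, 2.89, 3.05 and 2.76 in Scramble_Ecto and 0.744, 0.727 and 0.927 in Ctrl, and no groups overlapped. The ratio of TIMP1 to TIMP2 was 7.08, 7.02 and 7.78 in PKM2_KD_Ecto, 108, 103 and 111 in Scramble_Ecto and 3.42, 3.14 and 2.42 in Ctrl. MMP9 over TIMP1, the inhibitor known to bind its zymogen, was 4.38, 4.60 and 4.85 in PKM2_KD_Ecto, 0.944, 1.05 and 0.940 in Scramble_Ecto and 0.135, 0.115 and 0.0141 in Ctrl. These 3 groups followed each other without overlap on both ratios, with Scramble_Ecto highest for the inhibitors and PKM2_KD_Ecto highest for MMP9 over TIMP1. MMP14 over TIMP2 was 56.8, 59.1 and 61.2 in PKM2_KD_Ecto, 203, 199 and 194 in Scramble_Ecto and 13.2, 12.3 and 5.12 in Ctrl. The ratios are of transcripts, were not tested, and say nothing of protein or enzyme activity.

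**Figure D4:**
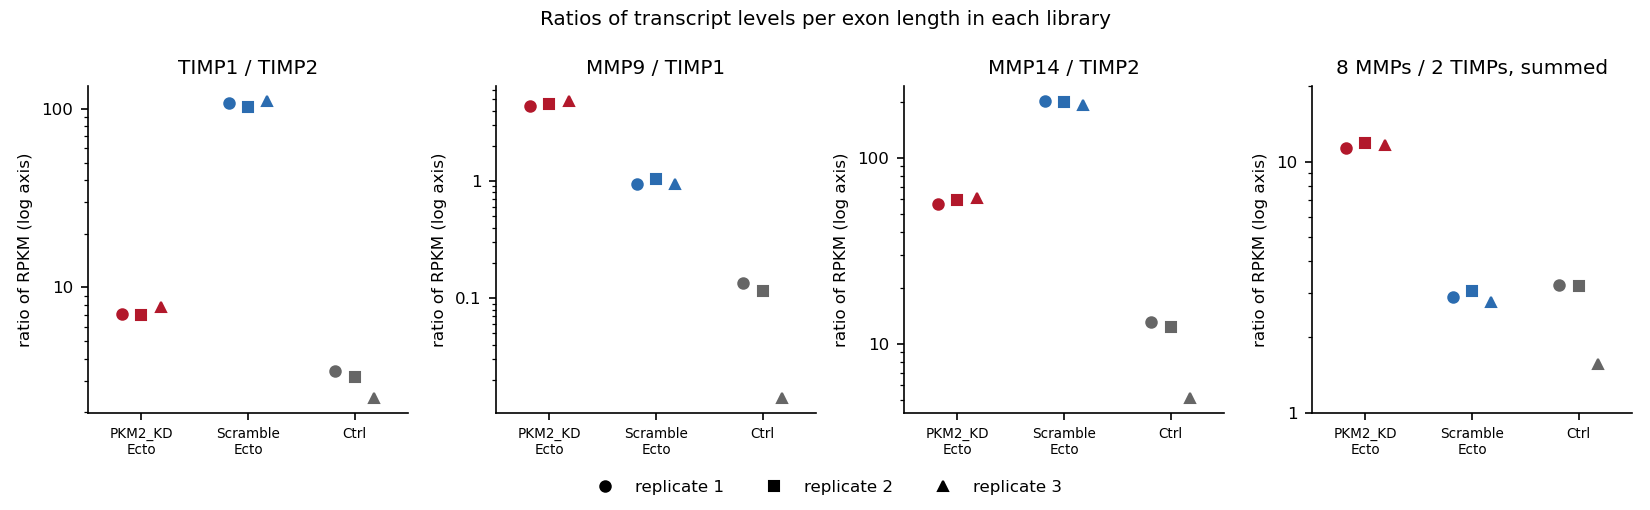
Ratios of RPKM in each library (log y axes), in 1 panel a ratio, with PKM2_KD_Ecto, Scramble_Ecto and Ctrl from left to right and marks for the replicate numbers. TIMP1 over TIMP2 is 103 to 111 in Scramble_Ecto, against 7.02 to 7.78 in PKM2_KD_Ecto and 2.42 to 3.42 in Ctrl.

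The genes whose pattern over the 9 libraries was most like that of a member were found by the root mean square difference of centred log2(CPM + 0.5) among 11085 rows with a mean of at least 5 CPM. SYNGR1 was the nearest to TIMP2 at 0.07, with 36.3 CPM in PKM2_KD_Ecto, 8.53 CPM in Scramble_Ecto and 34.9 CPM in Ctrl, followed by TPCN1 at 0.09 and TMEM14A at 0.10. CADM1 and the death receptor gene TNFRSF10B were among the nearest to TIMP1. TNFAIP3, an inhibitor of NF-kB signalling, was the nearest to MMP19 at 0.12, POU2F2 to MMP14 at 0.11 and TBXAS1, thromboxane synthase, to MMP2 at 0.11. GIMAP8, PPIF and RUNX3 were the nearest to MMP1, at 0.18 to 0.20. The nearest to MMP9 were RGS16 at 0.46, EBI3 at 0.47 and IER3 at 0.77. This measure grows with the range of a gene, so the distances of different members are not on 1 scale. MMP9 had the widest range of the members matched, with an SD of 3.42 over its centred values, against 1.60 for MMP1. RGS16 had 1321 CPM in PKM2_KD_Ecto, 1025 CPM in Scramble_Ecto and 21.5 CPM in Ctrl. MMP7, MMP10 and MMP12 were under 5 CPM in every group and were not matched.

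Of 17 other MMP and TIMP genes, 12 were in the table and 7 were tested, and 4 of these were called higher in PKM2_KD_Ecto than in Scramble_Ecto, against 31.4% of all rows called higher. The count was 2 without the PKM2_KD_Ecto library numbered 2 or the Scramble_Ecto library numbered 1 or 2, where TIMP3 and MMP15 lost their calls (MMP15 at adjusted p = 0.0627 to 0.0876). It was 5 without the Ctrl library numbered 3 (36.1% of all rows), where MMP24 was called as well (adjusted p = 0.0169). Against Ctrl, 3 were higher and 2 lower in PKM2_KD_Ecto (27.0% and 26.7% of all rows), and 2 were higher and 4 lower in Scramble_Ecto (34.6% and 33.2% of all rows). The lower count in PKM2_KD_Ecto was 1 without the PKM2_KD_Ecto library numbered 1 or 2, and the higher count in Scramble_Ecto was 1 without the Scramble_Ecto library numbered 1 or 3. TIMP3, the matrix-bound inhibitor, was lower in both ectosome groups than in Ctrl, and averaged 34.4 ± 3.70 CPM in PKM2_KD_Ecto, 15.3 ± 0.58 CPM in Scramble_Ecto and 390 ± 222 CPM in Ctrl. It was 11.4-fold lower in PKM2_KD_Ecto (adjusted p = 4.58e-05) and 25.5-fold lower in Scramble_Ecto (adjusted p = 4.15e-06) than in Ctrl. Its 2.24-fold difference between the ectosome groups (adjusted p = 0.0260) was lost on leaving out the PKM2_KD_Ecto library numbered 1 or 2 or any Scramble_Ecto library, with adjusted p = 0.0561 to 0.0702. MMP17, a membrane-anchored metalloproteinase, was, like TIMP2, lowest in Scramble_Ecto, with 59.98 ± 2.85 CPM in PKM2_KD_Ecto, 18.0 ± 1.30 CPM in Scramble_Ecto and 36.97 ± 2.20 CPM in Ctrl. It was called in all 3 comparisons, with adjusted p = 1.16e-07 between the ectosome groups. MMP25, of the same membrane-anchored type, was 2.64-fold higher in PKM2_KD_Ecto than in Scramble_Ecto (11.7 ± 0.39 CPM in PKM2_KD_Ecto and 4.42 ± 0.85 CPM in Scramble_Ecto, adjusted p = 0.000765). MMP25 had 4.93 ± 2.02 CPM in Ctrl.

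Of the other inhibitors and binding partners of MMPs, 14 were tested, and 6 were higher and 6 lower in PKM2_KD_Ecto than in Scramble_Ecto, where 31.4% of all rows were higher and 30.3% lower. On leaving out any 1 ectosome library, 4 or 5 were higher and 5 or 6 lower. LRP1, the endocytic receptor that clears MMP9 and its complexes, had 232 ± 17.5 CPM in PKM2_KD_Ecto, 16.5 ± 1.20 CPM in Scramble_Ecto and 25.1 ± 15.0 CPM in Ctrl, and was 14.1-fold higher in PKM2_KD_Ecto than in Scramble_Ecto (adjusted p = 1.87e-05). RECK, a membrane-anchored MMP inhibitor, was 2.26-fold higher in PKM2_KD_Ecto, at 24.5 ± 0.97 CPM, than in Scramble_Ecto, at 10.9 ± 1.66 CPM (adjusted p = 0.000246). In Ctrl, RECK had 27.2 ± 7.02 CPM. THBS1, which binds MMP2 and MMP9, was 3.53-fold lower in PKM2_KD_Ecto, at 101 ± 9.99 CPM, than in Scramble_Ecto, at 356 ± 5.73 CPM (adjusted p = 3.15e-06), with 0.987 ± 0.51 CPM in Ctrl. RECK and LRP1 thus stood with TIMP2 in direction between the ectosome groups, and THBS1 with TIMP1.

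Of 13 tested activators of MMP zymogens and genes of the plasminogen system, 11 were higher and 1 lower in Scramble_Ecto than in Ctrl (34.6% and 33.2% of all rows), and 1 was higher and 5 lower in PKM2_KD_Ecto than in Scramble_Ecto (31.4% and 30.3% of all rows). Without the Ctrl library numbered 3, the count between the ectosome groups was 3 higher and 7 lower (36.1% and 35.4% of all rows). The lower count between these groups was 4 without the PKM2_KD_Ecto or the Scramble_Ecto library numbered 1 or 2. It was 3 with library totals. Against Ctrl, 9 were higher and 1 lower in PKM2_KD_Ecto (27.0% and 26.7% of all rows). That higher count was 8 without the PKM2_KD_Ecto library numbered 3 or the Ctrl library numbered 1 or 2. PLAU, urokinase, was 2.13-fold lower in PKM2_KD_Ecto, at 35.4 ± 1.30 CPM, than in Scramble_Ecto, at 75.4 ± 3.56 CPM (adjusted p = 1.18e-05), and FURIN, the convertase that activates MMP14, was 1.54-fold lower, at 178 ± 7.97 CPM in PKM2_KD_Ecto and 275 ± 6.07 CPM in Scramble_Ecto (adjusted p = 0.00145). In Ctrl, PLAU had 21.8 ± 3.82 CPM and FURIN 93.5 ± 19.3 CPM. SERPINE2, an inhibitor of urokinase and thrombin, was 6.44-fold lower, at 16.5 ± 1.35 CPM in PKM2_KD_Ecto and 106 ± 3.97 CPM in Scramble_Ecto (adjusted p = 3.15e-05). Its level in Ctrl was 16.7 ± 8.55 CPM. The urokinase receptor gene PLAUR was 8.71-fold higher in Scramble_Ecto than in Ctrl, at 340 ± 14.9 CPM in Scramble_Ecto and 38.9 ± 18.5 CPM in Ctrl (adjusted p = 5.73e-06). PLAUR had 432 ± 9.16 CPM in PKM2_KD_Ecto, where every library lay above every Scramble_Ecto library. That difference was not called with all libraries. Without the Ctrl library numbered 3 it was called higher in PKM2_KD_Ecto (1.27-fold, adjusted p = 7.46e-06).

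Among 13 transcription factors that bind AP-1, ETS or NF-kB sites, 10 were higher and 0 lower in Scramble_Ecto than in Ctrl (34.6% and 33.2% of all rows). In PKM2_KD_Ecto, 2 were higher and 7 lower than in Scramble_Ecto (31.4% and 30.3% of all rows). These counts were 1 and 6 without the PKM2_KD_Ecto library numbered 1. They were 1 and 7 without the Scramble_Ecto library numbered 3. Against Ctrl, 8 were higher and 1 lower in PKM2_KD_Ecto (27.0% and 26.7% of all rows), and the higher count was 7 on leaving out any ectosome library. Without the Ctrl library numbered 3, 10 were higher and 2 lower in Scramble_Ecto than in Ctrl (36.9% and 34.7% of all rows, 71.6% in either direction), and 2 were higher and 10 lower in PKM2_KD_Ecto than in Scramble_Ecto (36.1% and 35.4% of all rows). FOSL2, an AP-1 subunit, had 187 ± 7.96 CPM in PKM2_KD_Ecto, 475 ± 12.8 CPM in Scramble_Ecto and 199 ± 11.96 CPM in Ctrl, and was 2.54-fold lower in PKM2_KD_Ecto than in Scramble_Ecto (adjusted p = 2.31e-07). ETS2 was 2.55-fold lower in PKM2_KD_Ecto, at 77.7 ± 5.31 CPM, than in Scramble_Ecto, at 198 ± 6.60 CPM (adjusted p = 2.87e-06), and JUNB 1.82-fold lower, at 263 ± 20.7 CPM in PKM2_KD_Ecto and 478 ± 27.9 CPM in Scramble_Ecto (adjusted p = 0.00525). Ctrl had 77.7 ± 12.5 CPM of ETS2 and 57.8 ± 21.1 CPM of JUNB. ETS1 was 1.59-fold higher, at 85.6 ± 6.23 CPM in PKM2_KD_Ecto and 53.8 ± 0.99 CPM in Scramble_Ecto (adjusted p = 0.0156), a call that was lost without the PKM2_KD_Ecto library numbered 1 (0.0517) or the Scramble_Ecto library numbered 3 (0.0502). ETS1 had 58.9 ± 20.3 CPM in Ctrl.

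Of 13 tested ADAM and ADAMTS relatives, 8 were higher and 3 lower in PKM2_KD_Ecto than in Scramble_Ecto (31.4% and 30.3% of all rows). Without the Ctrl library numbered 3, 9 were higher and 3 lower (36.1% and 35.4% of all rows). On leaving out any 1 ectosome library, 7 or 8 were higher and 2 lower. ADAM28 was 19.6-fold higher in PKM2_KD_Ecto, at 56.3 ± 3.13 CPM, than in Scramble_Ecto, at 2.87 ± 0.30 CPM (adjusted p = 3.95e-06), while ADAM9 was 1.52-fold lower, at 112 ± 5.08 CPM in PKM2_KD_Ecto and 170 ± 2.36 CPM in Scramble_Ecto (adjusted p = 7.91e-05). In Ctrl, ADAM28 had 3.84 ± 2.42 CPM and ADAM9 45.1 ± 4.08 CPM. Of 15 tested substrates, 9 were higher and 3 lower in PKM2_KD_Ecto than in Scramble_Ecto (31.4% and 30.3% of all rows). The count was 11 higher and 4 lower without the Ctrl library numbered 3 (36.1% and 35.4% of all rows). The lower count was 2 on leaving out any 1 PKM2_KD_Ecto library or the Scramble_Ecto library numbered 1. SPP1, osteopontin, was 7.60-fold higher in PKM2_KD_Ecto, at 283 ± 3.78 CPM, than in Scramble_Ecto, at 37.3 ± 7.30 CPM (adjusted p = 4.98e-05), and HSPG2, perlecan of basement membranes, 12.9-fold higher, at 125 ± 12.7 CPM in PKM2_KD_Ecto and 9.65 ± 1.20 CPM in Scramble_Ecto (adjusted p = 1.05e-08). In Ctrl, SPP1 had 2.98 ± 2.25 CPM and HSPG2 58.0 ± 4.04 CPM. CXCL8, a chemokine that MMP9 is known to trim, was 4.79-fold lower, at 898 ± 80.1 CPM in PKM2_KD_Ecto and 4297 ± 231 CPM in Scramble_Ecto (adjusted p = 0.00110), with 16.0 ± 11.1 CPM in Ctrl.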

How the data were processed

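RNA of THP-1 cells was sequenced in 9 libraries of 3 groups. The authors deposited 1 table with a row per gene symbol, holding raw counts for each library, not normalized. HISAT2 2.0.5, featureCounts 1.5.0-p3 and GRCh38/hg38 are named in the submitters' processing notes. Neither the strand setting nor the annotation is stated there. The table had 30000 rows with a lowest row total of 4, of which 355 repeat an earlier symbol and the first row of a symbol was used. Of the row names, 99.92% were in GENCODE 29, used for coordinates and exon lengths.

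Counts were tested with edgeR 4.0.16 in R 4.3.3: filterByExpr by group (18437 rows left), TMM, 1 quasi-likelihood fit of 9 libraries with 6 residual degrees of freedom, two-sided. SEs are absolute log2 fold changes over the root of F. Where a group had 3 or fewer reads, exact Poisson ratios with 95% intervals or a bound against 3 counts are given. Alternatives were library totals or DESeq2 size factors in place of TMM, no filter, DESeq2 1.42.0, only the 6 libraries compared, a replicate block, and leaving out each library. The procedure was tested on simulated counts.

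The members and gene lists were chosen with earlier results of these data known. All 10 members are named, and from each list some of the up to 8 members with the highest group mean of at least 5 CPM, picked after their values were seen. Genes like a member were taken from the 3 nearest in pattern, and 1 of these is not reported here.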

Additional observations from a re-analysis of the deposited data

Results flagged for a closer look

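TIMP2 had effects of opposite sign against the shared Ctrl libraries in the 2 ectosome groups, and the difference between these effects was itself tested, as PKM2_KD_Ecto over Scramble_Ecto. It came to 2.15 on the log2 scale (SE 0.08, adjusted p = 3.15e-08 by edgeR's quasi-likelihood test), from 0.19 for PKM2_KD_Ecto over Ctrl, which was not called with all libraries, and -1.96 for Scramble_Ecto over Ctrl. All 3 PKM2_KD_Ecto libraries lay above Ctrl and all 3 Scramble_Ecto libraries below it.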

How the results depend on the processing

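No member turned its direction past the threshold. Of the members' log2 fold changes under the alternatives, 390 kept their side of the threshold, 9 came past it and 5 lost it. Members called in PKM2_KD_Ecto against Scramble_Ecto numbered 8, of which 6 higher, with only the 6 libraries compared and without the Ctrl library numbered 3, against 5 and 3 with all libraries. MMP2 was also called with library totals (0.69, adjusted p = 0.0316). Library totals moved the median of all rows by 0.17 between the ectosome groups and by -0.20 for Scramble_Ecto against Ctrl, and the share of calls that were higher to 61.9% and 40.2%, against 50.9% and 51.0% with TMM. The labels state no pairing of samples by replicate number. Deviations of same-numbered libraries from their group means correlated at -0.13 to 0.09. With 3 libraries a group, these values cannot show whether samples were paired. With a replicate block, rows called numbered 11035 between the ectosome groups, 12179 for Scramble_Ecto against Ctrl and 9401 for PKM2_KD_Ecto against Ctrl, against 11365, 12492 and 9904. Members called were 5, 9 and 7 under the block, which lost MMP10 in PKM2_KD_Ecto against Ctrl (2.74, adjusted p = 0.0536, range over alternatives 0.0142 to 0.104). Depth limits MMP7, MMP10 and MMP12, which rest on few reads.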
